A study of Mus musculus with 60 samples.

Results

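Visceral fat was set against subcutaneous fat in mice fed a Western diet, using 5 libraries of each depot, 10 of the 60 libraries of a study of liver and both fats. The visceral group (VFAT) and the subcutaneous group (SFAT) were taken by their labels, and both came from mice on the Western diet, whose composition is given as 15.2% protein, 42% fat and, for carbohydrate, 42.7%, for 12 weeks. Both groups carry the treatment label Control. The other treatment of the study is NaKtide, a peptide taken from the sequence of the Na,K-ATPase, made from a transgene that doxycycline at 300 mg/kg of food switches on. The labels do not state whether the control mice carried the transgene or ate doxycycline, which promoter drives it, nor strain, sex, age or which visceral and subcutaneous pads were taken. They also do not say whether 1 mouse gave both depots. Visceral and subcutaneous libraries from Western-diet mice with NaKtide, and from mice on the control diet with 11% fat, 5 libraries each, were used only to see where the depot difference recurred.

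White fat stores triglyceride in adipocytes, and the depots of the abdominal cavity and under the skin differ in origin, in the developmental genes they keep on in adult life and in how they respond to excess food. Visceral pads are covered by mesothelium, a thin epithelium that subcutaneous pads lack, and mark their stroma with factors such as Wt1. Subcutaneous pads instead keep limb and body wall factors such as Tbx15, Shox2 and posterior Hox genes, and in mice they more readily form beige adipocytes, which burn fat.

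The libraries held 7039646 to 9493819 counts in visceral fat and 6745311 to 9784337 counts in subcutaneous fat. Levels are counts relative to library size (CPM), given as mean ± SD with n = 5 libraries, and differences are log2 fold changes of visceral over subcutaneous fat ± standard error (SE). A gene was called when its adjusted p fell under 0.05 in the quasi-likelihood test of edgeR, adjusted by Benjamini and Hochberg's method over 15004 genes, and every adjusted p below is from that test unless another fit is named. The design gives 5 mice per group, without tying a library to a mouse, so these p-values measure the spread between libraries. Of the genes tested 2425, or 16.2%, were called, 1413 higher (9.42%) and 1012 lower (6.74%) in visceral fat, and in 12.3% the 5 libraries of one depot all lay above those of the other. In bulk tissue, fewer cells of a type and less RNA per cell cannot be told apart.

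A few libraries carry marks that bear on the values. Visceral library 2 stands apart: on the first principal component, which holds 48.3% of the variance, it lies at 20.3, on the side of the subcutaneous libraries (15 to 53.2), whereas the other visceral libraries lie between -60.4 and -39.5. It also holds fewer reads from long genes, with a median deviation of -0.57 (log2 CPM) for genes over 8000 exon bases and 0.62 for genes under 1000, against 0.20 to 0.47 and -0.50 to -0.20 in the other visceral libraries and -0.26 to 0.06 and -0.13 to 0.38 in the subcutaneous ones. Without it 6809 of 15227 genes (44.7%) were called, 22.2% higher and 22.5% lower. The depot difference also followed gene length, and more so without that library. From genes under 1000 bases to those over 8000, the median log2 fold change ran from -0.28 to 0.40 with all libraries. Without visceral library 2 it ran from -0.56 to 0.55. The part of gene length in the counts without visceral library 2 was not tested. Without visceral library 3, 4 or 5 the share called was 11.8%, 10.5% or 11.1%, and without subcutaneous library 1, 2, 3, 4 or 5 it was 11.8%, 13.7%, 11%, 11.6% or 13.5%. For each gene list below, the count without visceral library 2 is given where it differs, as are those without any other library that moved a count of at least 2 by over 1.5 times. Each count is to be read against the share of all genes called, 16.2% with all libraries and 44.7% without visceral library 2. Visceral library 1 holds RNA of the male reproductive tract, as the 22 epididymis and testis genes sum to 1077 CPM there, against 0.70 to 10.8 CPM in the other visceral libraries and 0.14 to 0.92 CPM in subcutaneous fat. Without it 2109 of 15147 genes (13.9%) were called, 8.55% higher and 5.37% lower. Of 108 called genes named here, which leave out Ckb, Gk and Fabp5, all but Lep and Hoxc9 were still called. The 15 muscle genes sum to 78.0 to 642 CPM in visceral fat, highest in library 4, and to 84.5 to 303 CPM in subcutaneous fat. Genes of lymph node stroma reach 314 CPM in subcutaneous library 2 and 13.4 to 13.5 CPM in the other subcutaneous libraries. As adipocyte markers, the 25 adipocyte genes sum to at least 27060 CPM in every library, and the depot labels of all 10 libraries match their mesothelial and Tbx15 levels.

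**Figure D1:**
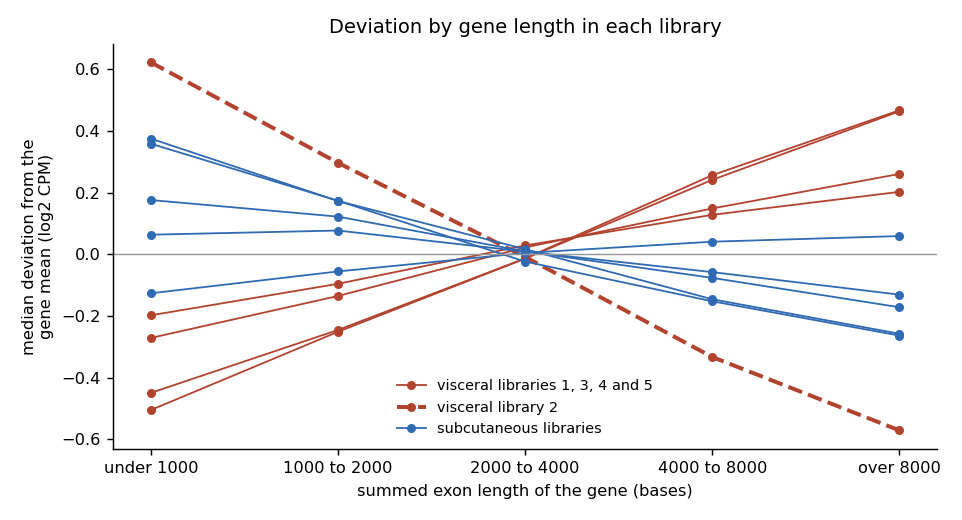
Median deviation from each gene's mean over the 10 libraries (vertical axis, log2 CPM) for genes in 5 classes of summed exon length (horizontal axis, bases), 1 line per library. Visceral library 2, dashed, runs from 0.62 for genes under 1000 bases to -0.57 for genes over 8000 bases, opposite to the other visceral libraries.

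Mesothelial genes had the largest median difference of all gene lists with a tested member, which is a description and not a test. Members at or near 0 in subcutaneous fat, such as Msln, Upk3b, Upk1b, Muc16, Crb2 and Bnc1, passed the count filter only through visceral fat. Such members had to come out higher. Of 18 genes listed as mesothelial markers 17 were tested, and 15 were higher in visceral fat and 1 lower, with a median log2 fold change of 4.60 against 0.0019 over all genes. Both counts were the same without visceral library 2 and without library 1. Msln, a surface protein of mesothelium (ENSMUSG00000063011, chromosome 17, 25748613 to 25754378, GRCm38), had 16.8, 59.3, 26.8, 55.2 and 29.7 CPM in the visceral libraries, against 0.15 CPM in 1 subcutaneous library and 0 in the other 4. The lowest visceral library thus lay far above the highest subcutaneous one. The ratio of counts is 1431, with a counting interval of 256 to 56552 that rests on 1 subcutaneous count and covers counting error only (adjusted p = 9.5e-06). Upk3b, a uroplakin found on mesothelium (ENSMUSG00000042985, chromosome 5, 136038496 to 136046487), had 41.6, 109, 68.9, 109 and 46.9 CPM in visceral fat, against 0.15, 0.15, 0, 0 and 0.12 CPM in subcutaneous fat. Its ratio of counts is 953 (counting interval 326 to 4621, adjusted p = 3.4e-06). Per transcript length, in the deposited FPKM, Upk3b and Msln averaged in visceral fat 15.9 ± 6.82 and 13.3 ± 6.51.

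The same held for Upk1b, another uroplakin, with 12.3 ± 5.00 CPM in visceral fat and 0.03 ± 0.06 CPM in subcutaneous fat (ratio of counts 473, counting interval 84.5 to 18713, adjusted p = 1.3e-05). Muc16, a membrane mucin of serous surfaces, had 3.50 to 10.5 CPM in visceral fat and no count in any subcutaneous library, at least 78.5-fold higher when 3 counts are allowed to the subcutaneous group as a whole (adjusted p = 0.00036). Crb2, a polarity protein, was at least 25.5-fold higher on the same rule (2.02 ± 0.16 CPM against 0 CPM, adjusted p = 0.00018). Keratins of simple epithelia rose with them: Krt19 by 4.38 ± 0.44 (adjusted p = 0.00012), Krt8 by 5.11 ± 0.71 (adjusted p = 0.00079) and Krt7, listed among skin and mammary genes, by 6.03 ± 0.56 (adjusted p = 7.5e-05). Lrrn4, a leucine-rich repeat protein of mesothelium, rose by 3.85 ± 0.41 (adjusted p = 0.00018), and the membrane glycoprotein Gpm6a by 4.60 ± 0.33 (adjusted p = 1.2e-05). The exception was Cldn15, a claudin, which was lower in visceral fat by -0.61 ± 0.16 (40.6 ± 7.59 against 61.9 ± 9.97 CPM, adjusted p = 0.027), with visceral library 2 just above the lowest subcutaneous one, and it was no longer called without visceral library 3 or without subcutaneous library 1, 2 or 3. Igfbp6 was not called (144 ± 83.7 against 109 ± 39.7 CPM, adjusted p = 0.46).

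The called developmental transcription factors split by depot. Of 16 factors listed for visceral fat 10 were tested, 4 were higher and 0 lower, and 5 and 1 without visceral library 2. Wt1, Tcf21 and Bnc1 had no subcutaneous count and passed the count filter only through visceral fat, so they had to come out higher. Wt1, the Wilms tumour factor that marks mesothelium and visceral fat progenitors (ENSMUSG00000016458, chromosome 2, 105126529 to 105173616), had 9.12, 6.32, 9.8, 7.77 and 7.65 CPM in visceral fat and no count in any subcutaneous library. It was at least 103-fold higher (adjusted p = 4.2e-05). Tcf21, a basic helix-loop-helix factor of visceral stroma, had 3.85, 8.95, 7.32, 5.48 and 5.03 CPM against 0 CPM throughout, at least 76.5-fold higher (adjusted p = 0.00017). Bnc1, a zinc finger factor of mesothelium and also counted in that list, was at least 38.3-fold higher (2.94 ± 1.39 against 0 CPM, adjusted p = 0.00093). Osr1, a factor of intermediate mesoderm, rose by 0.97 ± 0.19 (27.5 ± 4.86 against 14.0 ± 3.33 CPM, adjusted p = 0.0052). Emx2, of the same list, went the other way but was not called with all libraries (-1.21 ± 0.39, adjusted p = 0.054). It was called lower without visceral library 1 (adjusted p = 0.011) and without visceral library 2 (adjusted p = 0.045). Gata6 was not called (0.19 ± 0.23, adjusted p = 0.60).

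Of 25 factors listed for subcutaneous fat 15 were tested, and 0 were higher and 9 lower in visceral fat, 11 of 16 without visceral library 2. Members near 0 in visceral fat, such as Tbx15 and Shox2, passed the count filter only through subcutaneous fat. Tbx15, a T-box factor of limb and skin mesenchyme (ENSMUSG00000027868, chromosome 3, 99240381 to 99354259), had 0, 0, 0.11, 0.70 and 0 CPM in visceral fat, against 10.1, 15.9, 16.8, 19.8 and 14.1 CPM in subcutaneous fat. It was lower by -6.29 ± 0.60 (adjusted p = 8.3e-05), and the depots were far apart. Shox2, a homeobox factor of limb growth, had 0.13, 0.53, 0.90, 0.70 and 0.55 CPM in visceral fat, against 16.4, 15.9, 26.0, 19.4 and 13.5 CPM in subcutaneous fat (log2 -4.96 ± 0.34, adjusted p = 9.5e-06). En1, the engrailed factor of ventral skin and limb, was lower by -3.24 ± 0.41 (adjusted p = 0.00055), Tbx5 of the forelimb by -2.71 ± 0.39 (adjusted p = 0.00095) and Twist2 of dermis by -2.03 ± 0.28 (adjusted p = 0.00078). Irx2 was called lower (-3.20 ± 0.73, adjusted p = 0.012), although visceral library 1 with 1.28 CPM lay above the lowest subcutaneous library with 1.05 CPM. Irx1, of the same family, fell under the count filter: it had no count in visceral fat and 194 counts over 0.60 to 10.8 CPM in subcutaneous fat, at least 74.4-fold lower in visceral fat with counting error only.

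**Figure D2:**
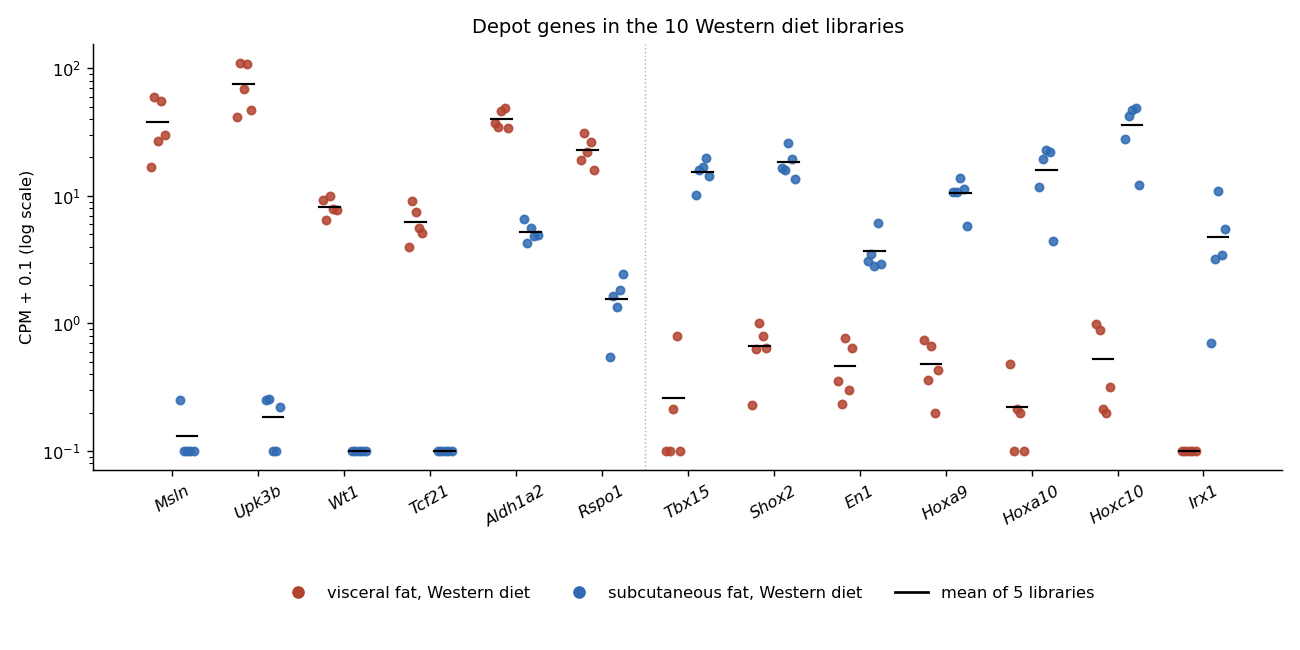
CPM + 0.1 on a log axis for 13 depot genes, visceral libraries left and subcutaneous libraries right of each gene, bars at the mean of 5. The 6 genes left of the dotted line are higher in every visceral library, and the 7 to its right are lower in every visceral library.

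RefSeq promoter windows (GRCm38.p6, 250 bases before to 50 after the listed start) are shown for 5 of these genes, 3 that were at or near 0 in subcutaneous fat and 2 that were near 0 in visceral fat, so that the control regions of genes with a depot-restricted transcript can be read side by side. Capitals mark 2 short motifs on either strand, TATAAA, the TATA box, and GGGCGG, the GC box; they do not overlap here. Over all 27018 promoters of the table, the first listed start of each gene, 14.2% hold TATAAA and 35.9% hold GGGCGG. The windows lie at chr5:136038246-136038545 on the plus strand (Upk3b), chr10:22820094-22820393 on the minus strand (Tcf21), chr7:81992250-81992549 on the minus strand (Bnc1), chr3:66981722-66982021 on the minus strand (Shox2) and chr6:52240805-52241104 on the minus strand (Hoxa10).
Upk3b: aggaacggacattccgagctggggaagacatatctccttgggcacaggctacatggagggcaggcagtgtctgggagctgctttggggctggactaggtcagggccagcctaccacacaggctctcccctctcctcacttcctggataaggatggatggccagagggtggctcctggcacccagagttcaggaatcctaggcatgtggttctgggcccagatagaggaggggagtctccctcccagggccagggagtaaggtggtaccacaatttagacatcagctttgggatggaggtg
Tcf21: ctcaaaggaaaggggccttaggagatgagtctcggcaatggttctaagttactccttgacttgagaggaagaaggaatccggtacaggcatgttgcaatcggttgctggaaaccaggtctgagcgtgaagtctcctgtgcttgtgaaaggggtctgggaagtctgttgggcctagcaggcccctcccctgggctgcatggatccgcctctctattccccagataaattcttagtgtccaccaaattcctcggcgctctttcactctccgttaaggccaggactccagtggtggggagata
Bnc1: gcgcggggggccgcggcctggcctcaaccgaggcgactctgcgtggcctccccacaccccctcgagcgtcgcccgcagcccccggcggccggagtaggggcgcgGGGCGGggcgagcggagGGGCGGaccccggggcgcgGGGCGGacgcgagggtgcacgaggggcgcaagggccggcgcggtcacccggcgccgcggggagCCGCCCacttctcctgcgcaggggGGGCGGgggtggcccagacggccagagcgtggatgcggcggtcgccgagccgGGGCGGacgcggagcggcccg
Shox2: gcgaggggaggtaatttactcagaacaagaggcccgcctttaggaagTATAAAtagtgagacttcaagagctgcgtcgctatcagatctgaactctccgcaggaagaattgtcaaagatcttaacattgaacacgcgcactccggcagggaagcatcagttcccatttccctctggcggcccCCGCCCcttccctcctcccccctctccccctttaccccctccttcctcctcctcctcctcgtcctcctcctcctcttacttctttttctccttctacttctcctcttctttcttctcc
Hoxa10: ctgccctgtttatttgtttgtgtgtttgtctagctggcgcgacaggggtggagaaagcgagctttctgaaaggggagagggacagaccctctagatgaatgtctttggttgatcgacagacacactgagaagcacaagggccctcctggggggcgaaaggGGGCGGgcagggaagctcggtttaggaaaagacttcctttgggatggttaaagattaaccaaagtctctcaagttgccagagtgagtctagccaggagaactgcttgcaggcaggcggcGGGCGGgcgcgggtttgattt
The GC content is 83.3% for Bnc1, whose window holds GGGCGG 6 times, and 53.3% to 58.7% for the other 4. Shox2 alone of the 5 holds TATAAA, once, and GGGCGG is found once in Shox2, 2 times in Hoxa10 and in neither Upk3b nor Tcf21. A match to these letters is a description of the window, not a binding site.

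Hox genes, which keep the body's head-to-tail position code, differed at the posterior end of the Hoxa and Hoxc clusters. Of 39 Hox genes 23 were tested, with 1 higher and 7 lower in visceral fat. These were 3 and 8 without visceral library 2, 3 and 6 without visceral library 3, and 3 and 7 without subcutaneous library 5. Hoxa10 (ENSMUSG00000000938, chromosome 6, 52231197 to 52240854) had 0.39, 0, 0.11, 0.10 and 0 CPM in visceral fat, against 11.7, 19.3, 22.7, 22.0 and 4.30 CPM in subcutaneous fat (log2 -6.93 ± 0.67, adjusted p = 8.7e-05). Hoxc10 (ENSMUSG00000022484, chromosome 15, 102966796 to 102971893) had 0.90, 0.79, 0.11, 0.10 and 0.22 CPM in visceral fat, against 27.9, 41.9, 47.3, 49.0 and 12.2 CPM in subcutaneous fat (log2 -6.43 ± 0.55, adjusted p = 4.2e-05). Neither gene overlapped between depots, and subcutaneous library 5 was the lowest of its group for both. Hoxa9 was lower by -4.74 ± 0.39 (0.38 ± 0.22 against 10.4 ± 2.89 CPM, adjusted p = 3.7e-05). Hoxa10, Hoxc10 and Hoxa9, all near 0 in visceral fat, passed the count filter only through subcutaneous fat. Steps toward the anterior end were smaller: Hoxa7 was lower by -1.08 ± 0.20 (adjusted p = 0.004), Hoxc9 by -1.33 ± 0.38 (adjusted p = 0.033), Hoxc5 by -0.85 ± 0.16 (adjusted p = 0.004) and Hoxc6 by -0.40 ± 0.10 (adjusted p = 0.022). Hoxc8, between them, was not called (69.0 ± 6.63 against 87.4 ± 9.55 CPM, adjusted p = 0.063), and neither was any of the 4 tested Hoxa genes numbered below 7 nor any of the 8 tested Hoxb genes. Hoxd8 was the 1 Hox gene that rose (0.70 ± 0.18, 18 ± 3.11 against 11.1 ± 2.19 CPM, adjusted p = 0.019).

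Per transcript length, in the deposited FPKM, the highest called Hox genes of subcutaneous fat were Hoxc6 and Hoxc10, with 13.8 ± 0.89 and 13.7 ± 5.93, and in visceral fat Hoxc10 stood at 0.17 ± 0.15 against 10.6 ± 0.82 for Hoxc6. The annotated span of Hoxc5 covers Hoxc6, Hoxc8 and Hoxc9 and overlaps Hoxc10, and how reads in shared exons were assigned is not given in the sources used here, so single values of that cluster are uncertain. Hoxc9 was no longer called when any of 7 single libraries was left out, which were visceral 1, 3, 4 and 5 and subcutaneous 2, 3 and 4. Hoxc6 was lost without visceral library 4 or subcutaneous library 3 or 4 and with a length trend per library in the model, and Hoxd8 without visceral library 4 or 5.

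**Figure D3:**
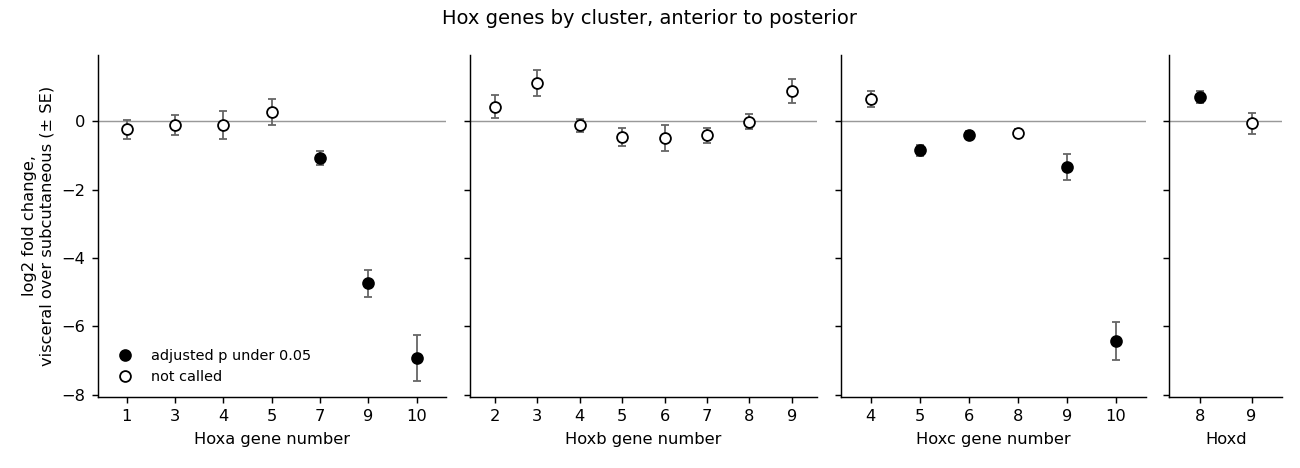
log2 fold change of visceral over subcutaneous fat ± SE for the 23 tested Hox genes, by cluster and gene number, with filled points for adjusted p under 0.05. The lowest points are Hoxa10 at -6.93, Hoxc10 at -6.43 and Hoxa9 at -4.74, whereas the Hoxb genes lie between -0.50 and 1.11.

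Some genes of developmental signalling were also called between the depots. The shares called were 38.9% for the retinoid list, 31.6% for Wnt and 39.3% for BMP and TGF-beta, against 16.2% of all genes. For the FGF, Hedgehog and Notch list the share was 25%. Without visceral library 2 all of these lists stood close to the share of all genes, 44.7%. In the retinoid list of 24 genes, 18 were tested, 3 were higher and 4 lower, and 3 and 6 without visceral library 2. Aldh1a2, which makes retinoic acid and is also a mesothelial marker, had 37.2, 34.9, 46.1, 49.0 and 33.7 CPM in visceral fat, against 6.45, 4.16, 5.54, 4.77 and 4.8 CPM in subcutaneous fat (log2 2.96 ± 0.17, adjusted p = 3.4e-06). Every visceral library lay above every subcutaneous one. Aldh1a3, a second enzyme of the same step, rose by 2.81 ± 0.31 (50.7 ± 6.26 against 7.17 ± 3.87 CPM, adjusted p = 0.00019), whereas Rxrg, a retinoid X receptor, was lower by -1.35 ± 0.21 (14.2 ± 4.11 against 36.2 ± 7.67 CPM, adjusted p = 0.0016). Of 29 Wnt genes 19 were tested, with 5 higher and 1 lower, and 7 and 3 of 20 without visceral library 2. Without subcutaneous library 1, 2 or 5 there were 5 higher, and 2, 3 or 2 lower. Rspo1, a secreted amplifier of Wnt signals, rose by 3.94 ± 0.32 (22.8 ± 6.02 against 1.46 ± 0.69 CPM, adjusted p = 3.7e-05). The ligand Wnt2b rose by 2.92 ± 0.48 (adjusted p = 0.002) and the inhibitor Sfrp1 by 2.25 ± 0.48 (adjusted p = 0.0084), with subcutaneous library 5 at 19.9 CPM for Sfrp1 and the others at 1.88 to 6.90 CPM.

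Of 33 BMP and TGF-beta genes 28 were tested, 10 higher and 1 lower, and 11 and 3 without visceral library 2. With another library left out the rises were as few as 5, without visceral library 5 or subcutaneous library 2, and 6 without visceral library 4 or subcutaneous library 1, with 0 lower in each. Nog, which binds and blocks BMPs, rose by 2.18 ± 0.32 (7.53 ± 2.49 against 1.66 ± 0.53 CPM, adjusted p = 0.0011), and the ligand Tgfb2 by 1.68 ± 0.33 (adjusted p = 0.0062). The 24 tested genes of the FGF, Hedgehog and Notch list had 4 higher and 2 lower, and 9 and 2 without visceral library 2. Fgf10, a growth factor of adipocyte precursors, was lower by -0.92 ± 0.13 (35.1 ± 2.65 against 66.3 ± 11.4 CPM, adjusted p = 0.00093).

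Adipocyte genes were lower in visceral fat where they were called. All 25 genes of adipocyte identity were tested, with 0 higher and 9 lower and a median log2 fold change of -0.39. Without visceral library 2 the counts were 2 higher and 15 lower. Slc2a4, the insulin-responsive glucose transporter, had 117, 163, 105, 118 and 120 CPM in visceral fat, against 265, 259, 261, 270 and 281 CPM in subcutaneous fat (log2 -1.10 ± 0.13, adjusted p = 0.00028). The depots did not overlap, and visceral library 2 was the highest of its group. Gpd1, which supplies the glycerol backbone of triglyceride, was lower by -1.32 ± 0.17 (adjusted p = 0.0006), Cebpa, a master factor of adipocyte differentiation, by -0.78 ± 0.13 (adjusted p = 0.0021), and Plin1, the coat protein of the lipid droplet, by -0.70 ± 0.11 (adjusted p = 0.0013). The summed level of the list was 27060 to 29490 CPM in visceral fat and 33090 to 42970 CPM in subcutaneous fat, without overlap.

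Enzymes that make fat followed the same direction. Of 23 tested genes of fatty acid and triglyceride synthesis 0 were higher and 9 lower (2 and 12 without visceral library 2). Agpat2, which adds the second fatty acid to glycerol, averaged 643 ± 175 CPM in visceral fat and 1589 ± 186 CPM in subcutaneous fat (log2 -1.31 ± 0.18, adjusted p = 0.00069), and Acss2, which makes acetyl-CoA from acetate, was lower by -1.07 ± 0.20 (345 ± 102 against 726 ± 114 CPM, adjusted p = 0.0041). In cholesterol synthesis 0 of 23 tested genes were higher and 4 lower, 10 lower without visceral library 2 and 7 without subcutaneous library 5. With all libraries 17.4% of that list was called, near the 16.2% of all genes. Without visceral library 2 it was also near the share of all genes, 44.7%. Insig1, a sterol sensor, was lower by -0.68 ± 0.17 (adjusted p = 0.017). Lipolysis genes had 1 higher and 8 lower of 20, 3 and 12 without visceral library 2, 1 and 5 without visceral library 4 or 5, and 2 and 7 without subcutaneous library 5. Lipe, hormone-sensitive lipase, was lower by -0.52 ± 0.11 (adjusted p = 0.0096), and Plin5, a droplet protein of oxidative cells, by -1.73 ± 0.30 (15.8 ± 7.26 against 52.5 ± 17.5 CPM, adjusted p = 0.0031).

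The respiratory chain was lower in visceral fat in most of its listed genes. Of 24 nuclear genes of oxidative phosphorylation 0 were higher and 19 lower, with a median of -0.72, and all 24 were lower both without visceral library 2 and with a length trend per library in the model, where 20.5% of all genes were called, 10.4% higher and 10.1% lower. These are short transcripts, with a median of 1568 exon bases, and genes of 1000 to 2000 bases had a median log2 fold change of -0.18 as a class. Uqcrc2 of complex III had 113, 123, 123, 115 and 116 CPM in visceral fat, against 215, 175, 213, 213 and 213 CPM in subcutaneous fat (log2 -0.80 ± 0.10, adjusted p = 0.00049). The depots did not overlap, and subcutaneous library 2 was the lowest of its group. Uqcrfs1, the Rieske protein of the same complex, was lower by -0.91 ± 0.15 (adjusted p = 0.002) and Atp5b of ATP synthase by -0.75 ± 0.12 (adjusted p = 0.002). Fatty acid oxidation had 0 higher and 13 lower of 25 (17 lower without visceral library 2), with Cpt2, which hands acyl groups to the matrix, lower by -1.20 ± 0.17 (adjusted p = 0.00085) and Hadh, a dehydrogenase of beta-oxidation, by -1.03 ± 0.14 (adjusted p = 0.00064). Transcripts of the mitochondrial genome took 1.73% to 2.63% of counts in visceral fat and 2.39% to 3.37% in subcutaneous fat.

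Of 24 thermogenic genes 16 were tested, 2 higher and 6 lower in visceral fat, and 3 and 9 of 19 without visceral library 2. Cidea, a lipid droplet protein of brown and beige adipocytes, had 4.49, 5.66, 3.49, 2.49 and 4.15 CPM in visceral fat, against 79.2, 59.3, 38.7, 26.3 and 132 CPM in subcutaneous fat (log2 -4.06 ± 0.43, adjusted p = 0.00017). All subcutaneous libraries were higher, library 5 most of all. Cox8b, a muscle-type and brown fat subunit of cytochrome oxidase, followed with 6.68, 45.5, 15.2, 15.9 and 15.3 CPM in visceral fat, against 106, 65.4, 48.6, 50.7 and 176 CPM in subcutaneous fat (log2 -2.18 ± 0.49, adjusted p = 0.012). Otop1, a proton channel of brown fat, was lower by -1.50 ± 0.27 (adjusted p = 0.0037) and Kcnk3, a potassium channel, by -1.24 ± 0.17 (adjusted p = 0.00079). Ucp1, the uncoupling protein, fell under the count filter with 3 counts in visceral fat and 1582 in subcutaneous fat, a ratio of 607 (counting interval 207 to 2945) that rests on subcutaneous library 5, which had 181 CPM where the others had 0.43 to 9.60 CPM.

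Called genes of insulin and hormone signalling went in both directions. In the insulin and IGF list 1 of 19 tested genes was higher and 3 lower, 5 and 4 without visceral library 2, and 2 and 3 without subcutaneous library 5. With all libraries 21.1% of that list was called, near the 16.2% of all genes. Without visceral library 2 the list was also near the share of all genes, 44.7%. Grb14, an adaptor that restrains the insulin receptor, had 31.8, 26.7, 25, 25.8 and 31.9 CPM in visceral fat, against 151, 175, 165, 122 and 191 CPM in subcutaneous fat (log2 -2.51 ± 0.15, adjusted p = 3.4e-06). The depots were well apart, with little spread within visceral fat. Igfbp2, an IGF binding protein, rose by 4.83 ± 0.66 (15.2 ± 8.71 against 0.55 ± 0.75 CPM, adjusted p = 0.00072). Near 0 in subcutaneous fat, it passed the count filter only through visceral fat and had to come out higher. Among 27 adipokines 20 were tested, 6 higher and 3 lower (6 and 8 without visceral library 2). Agt, the precursor of angiotensin, had 176, 191, 54.3, 130 and 136 CPM in visceral fat, against 15.3, 7.86, 9.09, 14.0 and 8.49 CPM in subcutaneous fat (log2 3.65 ± 0.34, adjusted p = 7.4e-05). Enpep, an aminopeptidase that cuts angiotensin, rose by 1.74 ± 0.31 (adjusted p = 0.0034), and of 17 genes of the renin-angiotensin and natriuretic list 8 were tested, 3 higher and 0 lower, and 5 and 1 without visceral library 2.

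Leptin was only just called: Lep averaged 3457 ± 246 CPM in visceral fat and 2643 ± 304 CPM in subcutaneous fat (log2 0.39 ± 0.12, adjusted p = 0.046), the depots did not overlap, and the adjusted p was 0.065 without visceral library 1. Lep was still called in only 2 of the 10 sets with 1 library left out, those without visceral library 2 or subcutaneous library 4. Adipoq, adiponectin, was not called with all libraries (-0.41 ± 0.16, 1435 ± 349 against 1905 ± 170 CPM, adjusted p = 0.10), and without visceral library 2, which was the highest of its group, its adjusted p was 0.0026. Retn, resistin, was lower by -1.08 ± 0.25 (adjusted p = 0.012), with visceral library 2 at 887 CPM and the other visceral libraries at 377 to 432 CPM, and library 2 lay above the lowest subcutaneous library. Nrg4, a growth factor secreted by fat, was lower by -1.53 ± 0.16 (27.0 ± 4.46 against 77.8 ± 15.4 CPM, adjusted p = 0.00017). Lcn2, lipocalin 2, rose by 2.55 ± 0.24 (27.5 ± 7.36 against 4.73 ± 1.43 CPM, adjusted p = 8e-05). Nnat, an imprinted gene of adipocytes, was lower by -1.42 ± 0.24 (adjusted p = 0.0023), and Meg3, an imprinted long RNA, higher by 1.48 ± 0.33 (adjusted p = 0.011).

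Macrophage genes were higher in visceral fat. Of 24 general macrophage and monocyte genes 14 were higher and 0 lower, with a median of 0.88, and 17 were higher without visceral library 2. Itgam, an integrin of myeloid cells, had 21.3, 28.0, 39.3, 31.7 and 25.1 CPM in visceral fat, against 12.9, 8.48, 11.7, 11.4 and 12.8 CPM in subcutaneous fat (log2 1.34 ± 0.18, adjusted p = 0.00072). Ccr2, the receptor that brings in monocytes, rose by 1.53 ± 0.23 (adjusted p = 0.0013) and the mannose receptor Mrc1 by 1.24 ± 0.19 (adjusted p = 0.0016). Adgre1, the F4/80 antigen, had 73.3, 45.1, 206, 69.3 and 61.6 CPM in visceral fat, against 43.7, 17.4, 25.2, 21.4 and 40.3 CPM in subcutaneous fat (log2 1.62 ± 0.41, adjusted p = 0.019). Every visceral library was above every subcutaneous one, by a narrow margin between visceral library 2 and subcutaneous library 1, and Adgre1 was no longer called without subcutaneous library 3 or 4.

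Of 20 genes of lipid-associated macrophages, which clear lipid from dying adipocytes, 10 were higher and 1 lower, and 11 and 3 without visceral library 2. Trem2, their lipid receptor, had 37.9, 138, 157, 80.5 and 67.2 CPM in visceral fat, against 33.6, 12.0, 9.09, 10.1 and 20.4 CPM in subcutaneous fat (log2 2.50 ± 0.45, adjusted p = 0.0034). Gpnmb, a lysosomal glycoprotein of the same cells, had 105, 233, 832, 296 and 255 CPM in visceral fat, against 97.8, 34.5, 30.7, 26.2 and 92.1 CPM in subcutaneous fat (log2 2.61 ± 0.56, adjusted p = 0.0091). Visceral library 3 was the highest for both genes, and subcutaneous libraries 1 and 5 stood above the others of their group. Itgax, CD11c, rose by 2.61 ± 0.55 (adjusted p = 0.0083) and the lysosomal pump subunit Atp6v0d2 by 2.76 ± 0.63 (adjusted p = 0.012). The 1 called lower was Fabp5 (-0.64 ± 0.18, 265 ± 74.1 against 412 ± 53.7 CPM, adjusted p = 0.033), which overlapped between depots. Its adjusted p was 0.063 without visceral library 1. The summed level of the list was 8880 to 13100 CPM in visceral fat and 8870 to 12000 CPM in subcutaneous fat, so the depots overlapped. The protease Ctss, not of this list but of the one for MHC class II antigen presentation, rose by 1.82 ± 0.36 (adjusted p = 0.0061).

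Other immune lists were mixed. Of 28 tested chemokines and receptors 12 were higher and 1 lower (13 and 1 of 29 without visceral library 2), with Cx3cr1, the fractalkine receptor, up by 2.06 ± 0.28 (12.6 ± 2.57 against 3.02 ± 1.23 CPM, adjusted p = 0.00069), and Cxcl14, a chemokine of skin and fat, lower by -1.95 ± 0.20 (35.5 ± 11.0 against 137 ± 17.5 CPM, adjusted p = 0.00014). Of 16 tested inflammatory genes 8 were higher and 0 lower, and 11 and 0 without visceral library 2. Socs3, a brake on cytokine receptors, had 29.0, 47.0, 43.5, 56.9 and 63.5 CPM in visceral fat, against 14.0, 13.3, 15.4, 12.0 and 15.6 CPM in subcutaneous fat (log2 1.77 ± 0.20, adjusted p = 0.0002). The adhesion molecule Vcam1 rose by 1.12 ± 0.21 (adjusted p = 0.0048) and Casp1 of the inflammasome by 1.05 ± 0.17 (adjusted p = 0.0021), whereas Tnf and Il6 stayed under the count filter at 1.09 ± 0.17 and 0.29 ± 0.24 CPM in visceral fat and 1.13 ± 1.08 and 0.13 ± 0.13 CPM in subcutaneous fat. Of 10 tested genes of eosinophils and type 2 immunity 4 were higher and 0 lower (4 and 2 without visceral library 2), among them Chil3, a chitinase-like protein (2.82 ± 0.31, adjusted p = 0.0002), and Il33 (1.82 ± 0.33, adjusted p = 0.0035). In the complement list 13 of 21 were higher and 0 lower (14 and 1 without visceral library 2), with the inhibitor Serping1 at 727 ± 65.1 CPM in visceral fat and 359 ± 62.1 CPM in subcutaneous fat (log2 1.02 ± 0.14, adjusted p = 0.00077).

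None of the 19 tested T and NK cell genes, the 7 mast cell genes or the 20 interferon-stimulated genes was called by edgeR with all libraries, whereas 2, 1 and 3 of them had an unadjusted p under 0.05. DESeq2 called 1 T and NK gene higher, 0 mast cell genes, and 2 interferon genes lower. Without visceral library 2, 2 T and NK genes were higher, 3 mast cell genes lower, and 2 interferon genes higher and 6 lower. In the B cell list 1 of 12 tested genes was higher and 1 lower, and 2 and 1 without subcutaneous library 2. With all libraries 16.7% of that list was called, near the 16.2% of all genes. Ighm, the heavy chain of IgM, was lower by -1.08 ± 0.22 (438 ± 143 against 925 ± 127 CPM, adjusted p = 0.0068), and antibody genes share sequence, so its counts are uncertain. Lymph node stroma genes had 0 called of 6 by edgeR and by DESeq2, with 0 at an unadjusted p under 0.05, and their summed level was 17.5 to 63.2 CPM in visceral fat and 13.4 to 314 CPM in subcutaneous fat. The part of lymph node tissue in the immune values was not tested.

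**Figure D4:**
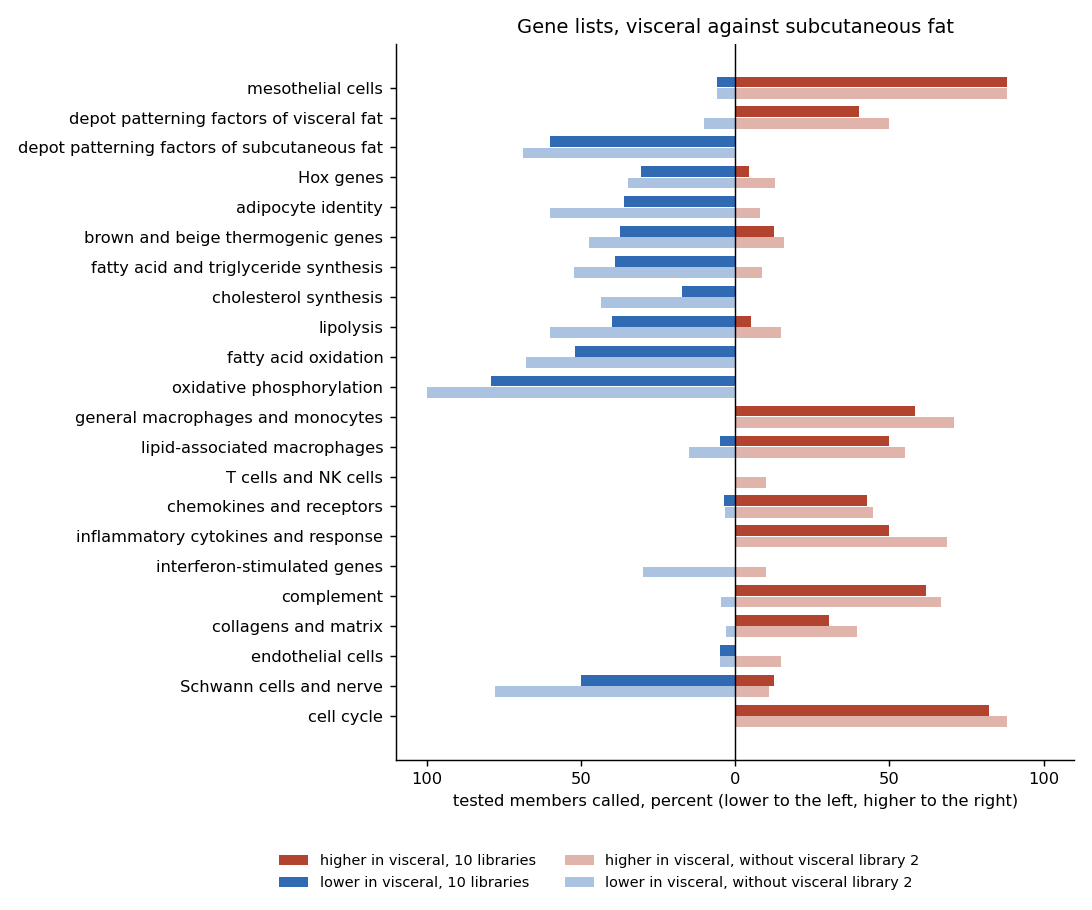
Share of tested members called lower (left) and higher (right) in visceral fat for 22 gene lists, in percent, with all 10 libraries (dark) and without visceral library 2 (pale). Mesothelial, macrophage, complement and cell cycle lists extend to the right, and oxidative phosphorylation and fatty acid oxidation to the left, in both.

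Matrix genes were higher in visceral fat where called. Of 33 collagens and matrix genes 10 were higher and 0 lower (13 and 1 without visceral library 2, and 8 and 3 with a length trend per library in the model), and the median member has 5895 exon bases. Only 5 were higher without subcutaneous library 2 or 4, and 6 without visceral library 3, 4 or 5 or subcutaneous library 1 or 3. Thbs1, thrombospondin 1, had 182, 95.4, 347, 294 and 263 CPM in visceral fat, against 31.5, 50.2, 46.7, 46.2 and 30.5 CPM in subcutaneous fat (log2 2.53 ± 0.31, adjusted p = 0.00044). Visceral library 2 was the lowest of its group and still above all subcutaneous libraries. Col12a1 of fibril surfaces rose by 1.74 ± 0.38 (adjusted p = 0.0099), Col6a1 by 0.94 ± 0.21 (adjusted p = 0.010) and the proteoglycan Dcn by 0.68 ± 0.14 (adjusted p = 0.0083). Col6a5, a collagen VI chain in no list, was among the largest rises, with 137, 72.6, 163, 66.3 and 75.4 CPM in visceral fat, against 0.30, 0.77, 0.21, 0.14 and 0.25 CPM in subcutaneous fat (log2 8.26 ± 0.44, adjusted p = 3.4e-06). Near 0 in subcutaneous fat, it passed the count filter only through visceral fat and had to come out higher.

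Of 22 proteases and inhibitors 8 were higher and 2 lower, 10 and 2 without visceral library 2, and 5 and 2 without visceral library 4 or subcutaneous library 3. Plau, the urokinase plasminogen activator, rose by 1.44 ± 0.15 (138 ± 28.1 against 51.1 ± 2.89 CPM, adjusted p = 0.00015), and Timp1, a protease inhibitor, by 2.05 ± 0.36 (adjusted p = 0.0031). Mmp3, stromelysin 1, went the other way with 2.82, 12.0, 18.6, 10.9 and 9.07 CPM in visceral fat, against 78.0, 51.8, 53.0, 73.1 and 50.7 CPM in subcutaneous fat (log2 -2.52 ± 0.35, adjusted p = 0.00087), and Mmp9, a gelatinase, was lower by -1.35 ± 0.18 (adjusted p = 0.00072).

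Stromal and vascular lists differed in how many genes were called. Among 24 tested genes of fibroblast progenitors 4 were higher and 3 lower, 7 and 4 of 25 without visceral library 2, and 3 and 1 without visceral library 4. Pdgfrb, a receptor of mural cells and progenitors, rose by 0.94 ± 0.16 (adjusted p = 0.0024), and Pdgfra, of the same progenitors, was not called (43.2 ± 23.2 against 32.0 ± 7.70 CPM, adjusted p = 0.36). Endothelial genes had 0 higher and 1 lower of 20 (3 and 1 without visceral library 2), and the vessel marker Pecam1 was not called (262 ± 66.2 against 201 ± 62.0 CPM, adjusted p = 0.30). Pericyte and smooth muscle genes had 5 higher and 1 lower of 13, the same without visceral library 2. Without any 1 of the other libraries 0 to 3 were higher and 0 or 1 lower, with 0 higher without visceral library 4 or subcutaneous library 3 or 4, and no member at all called without visceral library 4. Pdpn, carried by lymphatic endothelium, mesothelium and some fibroblasts, rose by 1.71 ± 0.21 (40.2 ± 10.4 against 12.3 ± 2.68 CPM, adjusted p = 0.00041).

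Several genes of peripheral nerve were lower in visceral fat. Of 15 genes of Schwann cells and nerve 8 were tested, 1 higher and 4 lower, and 1 and 7 of 9 without visceral library 2. Prx, periaxin of the myelin sheath, was lower by -1.45 ± 0.27 (adjusted p = 0.0044) and Mbp, myelin basic protein, by -0.78 ± 0.10 (adjusted p = 0.00068). S100b, made by Schwann cells and also by adipocytes, was lower by -3.09 ± 0.33 (3.39 ± 0.91 against 29.0 ± 12.6 CPM, adjusted p = 0.00018).

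Proliferation genes were higher in visceral fat, with 14 higher and 0 lower of 17 tested and a median of 1.24. Without subcutaneous library 3 the rises were 9, and without visceral library 2 they were 15. Top2a, the topoisomerase of dividing cells, had 25.3, 10.5, 21.9, 11.5 and 10.9 CPM in visceral fat, against 4.50, 5.55, 2.51, 3.32 and 7.38 CPM in subcutaneous fat (log2 1.78 ± 0.35, adjusted p = 0.0056). Its depots did not overlap. Of 16 tested clock genes 0 were higher and 5 lower (6 lower without visceral library 2), among them Nr1d1, the repressor REV-ERB alpha (140 ± 19.9 against 229 ± 33.5 CPM, log2 -0.71 ± 0.14, adjusted p = 0.006). The time of day of tissue collection is not stated in the labels used here.

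The study is about signalling of the Na,K-ATPase through Src, which NaKtide blocks. Of 27 tested Na,K-ATPase, Src and oxidant genes 9 were higher and 1 lower in visceral fat, and 13 and 3 without visceral library 2. Src had 22.6, 18.6, 19.1, 26.3 and 22.2 CPM in visceral fat, against 12.8, 14.8, 14.6, 15.2 and 10.6 CPM in subcutaneous fat (log2 0.68 ± 0.15, adjusted p = 0.0097). Every visceral library lay above the highest subcutaneous one.

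Among the largest differences of all genes, several belong to no list. These were picked for their size and for depots that do not overlap, so their p-values describe a selected set. Slpi, Lrp2 and Alox15, at or near 0 in subcutaneous fat, passed the count filter only through visceral fat and had to come out higher. Slpi, a secreted inhibitor of leukocyte proteases, had 41.2, 82.1, 37.6, 128 and 49.2 CPM in visceral fat, against 0.15, 0.62, 0.31, 0.72 and 0.49 CPM in subcutaneous fat (log2 7.18 ± 0.49, adjusted p = 9.5e-06). Lrp2, the endocytic receptor megalin, had 2.95 to 7.96 CPM in visceral fat and a single count in subcutaneous fat (ratio of counts 203, counting interval 36.0 to 8034, adjusted p = 5e-05). Alox15, a lipoxygenase, had 26.2 CPM in visceral library 1 and 2.19 to 6.45 CPM in the other visceral libraries, against 0 to 0.15 CPM in subcutaneous fat (ratio of counts 103, counting interval 34.9 to 501, adjusted p = 0.001). On the lower side stood Bpifb6, of the BPI lipid-binding family (log2 -4.16 ± 0.29, 1.41 ± 0.62 against 25.9 ± 5.78 CPM, adjusted p = 1e-05), and Vat1l (-3.09 ± 0.29, adjusted p = 8e-05). H2-Q10, a class I histocompatibility gene with close relatives that could share its reads, was lower by -3.05 ± 0.29 (27.3 ± 11.6 against 225 ± 69.5 CPM, adjusted p = 8e-05), and Il1r2, the decoy receptor of interleukin 1, by -2.96 ± 0.38 (adjusted p = 0.00056).

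Separate libraries of the same depots came from Western-diet mice with NaKtide. There the library labelled visceral 1 held no Msln or Wt1 count, 11.0 CPM of Hoxc10 and 26.2 CPM of Tbx15, and the library labelled subcutaneous 1 held 20.6 CPM of Msln, 7.35 CPM of Wt1 and 0.14 CPM of Tbx15, so both go against their depot labels. As labelled, 92 of 14847 genes were called (0.62%), 0.0606% higher and 0.559% lower. Without those 2 libraries 157 of 14878 (1.06%) were called, 0.242% higher and 0.813% lower. Without them Msln was higher in visceral fat by 6.80 ± 0.92 (adjusted p = 0.013), Upk3b by 8.47 ± 1.10 (adjusted p = 0.012), Agt by 6.31 ± 0.78 (adjusted p = 0.0088) and Aldh1a2 by 2.42 ± 0.38 (adjusted p = 0.024). Tbx15 was lower by -5.78 ± 0.60 (adjusted p = 0.0051), Shox2 by -4.95 ± 0.50 (adjusted p = 0.0051), Grb14 by -2.87 ± 0.46 (adjusted p = 0.028) and Mmp3 by -4.66 ± 0.55 (adjusted p = 0.0082). Of the 2253 genes called without NaKtide and tested in both comparisons 52.4% had the same direction there, against 43.2% of all genes. When visceral library 2 was also left out of the libraries without NaKtide, the shares were 37.7% and 41.6%. With that library kept, 79 genes were called in both comparisons, 21 higher in both and 44 lower in both. The other 14 were higher in visceral fat without NaKtide and lower with it. Of the 12 mesothelial genes tested with NaKtide 5 were higher and 0 lower. Hoxa10 was not called there (adjusted p = 0.44), and of 23 general macrophage genes 0 were called. Some genes called higher without NaKtide had the other sign there but were not called, namely Gpm6a (-1.43 ± 1.51, adjusted p = 0.62), Adgre1 (-1.38 ± 0.47, adjusted p = 0.21) and Casp1 (-1.75 ± 0.43, adjusted p = 0.12). Ccr2 kept its sign and was not called (0.43 ± 0.53, adjusted p = 0.68).

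**Figure D5:**
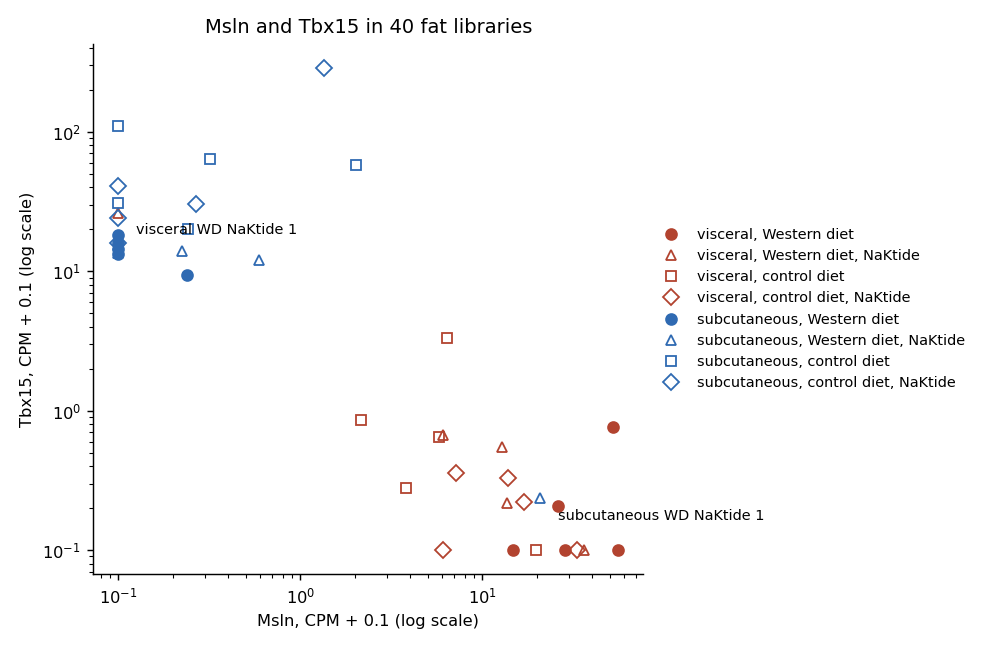
Msln (horizontal axis) against Tbx15 (vertical axis), both as CPM + 0.1 on log axes, in the 40 fat libraries of the study, scaled together. Filled circles are the 10 libraries compared here; the triangles at the upper left and lower right, named in the plot, are the 2 NaKtide libraries numbered 1, which lie on the other depot's side.

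Whether the depot difference itself changed with diet or NaKtide was tested as a difference of differences. Against control-diet fat 529 of 16070 genes (3.29%) had a depot difference that differed, 2.4% higher and 0.896% lower. Against Western-diet fat with NaKtide 1284 of 15981 did (8.03%), 5.54% higher and 2.49% lower. Without both libraries numbered 1 these were 936 of 16192 (5.78%), 4.34% higher and 1.45% lower. These contrasts share the 10 Western-diet libraries. In the macrophage list 13 of 24 genes had a depot difference that was higher on Western than on control diet, and 12 of 24 one that was higher without than with NaKtide, with 0 lower in both. Mrc1 averaged 149 CPM in visceral and 62.6 CPM in subcutaneous fat on Western diet, 40.5 and 54.1 CPM on Western diet with NaKtide, and 22.4 and 48.8 CPM on control diet, all 40 fat libraries being scaled together. Its difference of differences was 2.26 ± 0.43 for diet (adjusted p = 0.0082) and 1.63 ± 0.46 for NaKtide (adjusted p = 0.036). Socs3 gave 3.29 ± 0.55 (adjusted p = 0.0024) and 2.85 ± 0.48 (adjusted p = 0.0023).

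Foreign tissue moved with these contrasts. The summed epididymis and testis genes ranged over 0.66 to 934 CPM in Western-diet visceral fat, 2.51 to 37500 CPM with NaKtide and 20.3 to 32400 CPM on control diet, with medians of 3.58, 1020 and 17800 CPM. The summed muscle genes of subcutaneous fat had medians of 105 CPM on Western diet, 982 CPM with NaKtide and 49900 CPM on control diet, and all 15 muscle genes had a depot difference that differed with diet. The part of this RNA in the differences of differences was not tested. Wt1, Shox2 and Tbx15 were not called in either contrast, whereas Hoxa10 had a lower depot difference on Western than on control diet (-6.70 ± 1.45, adjusted p = 0.017) and a lower one without than with NaKtide (-5.81, adjusted p = 0.030). The control-diet library labelled visceral 1 held 24.4 CPM of Hoxc10, where the other 4 held 0 to 4.03 CPM.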

How the data were processed

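RNA was made into stranded TruSeq mRNA libraries and read as pairs of 50 bases, per the labels' protocols. The authors deposited raw counts per gene, and FPKM values normalized per exon length and depth, which served only to compare levels between genes. Trimmomatic 0.38, HISAT2 2.1.0, DESeq2 1.20.0 and GRCm38 are named in the submitters' processing notes; the counting program and annotation were not given in the sources used. Of 54232 gene IDs, 54165 were found in GENCODE M21, which gave positions and exon lengths.

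The 10 libraries alone were fitted in edgeR 4.0.16 (R 4.3.3) with filterByExpr, TMM scaling and the quasi-likelihood F test. SE is the log2 fold change divided by the root of F. Genes that passed the filter only through the group where they are high had to differ, so list counts describe the tested members only. Alternatives were RLE scaling, no filter, DESeq2 1.42.0, a replicate block, voom quality weights (limma 3.58.1), all 40 fat libraries together and each library left out. Chosen after seeing the data were a length trend per library (lowess span 0.3), leaving out both NaKtide libraries numbered 1, and leaving out visceral libraries 1 and 2. The groups compared and the 49 gene lists, as well as the tests, were chosen with earlier results of these data known. Named genes were a selection from a rule: the 12 largest rises and falls with at least 5 CPM in the higher group and groups that do not overlap, up to 4 members per list and direction by p, all tested mesothelial, depot and Hox genes, and a few fixed genes; a few genes that the rule chose are not reported here. On simulated counts for the Western-diet comparison, 53% of genes changed 2-fold and 87% of those changed 4-fold were recovered, with 7 false calls among 14838 genes. The simulation drew each gene on its own and held no length trend and no library that stands apart. Recovery and false calls in the real libraries can therefore differ from these values. No pair of libraries within a group agreed within sampling noise. Counting intervals are exact at 95% and cover counting error only. No per-sample column was left unmapped.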

Additional observations from a re-analysis of the deposited data

Results flagged for a closer look

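Single libraries stood far from the other 4 of their group by Dixon's test, which chance alone gives in about 1 in 20 groups. The flags come from 113 genes named in the report, without Ckb, Gk and Fabp5, each looked at in both depots. A part of the flags is thus what chance gives. Visceral library 1 held 26.2 CPM of Alox15 (others 2.19 to 6.45) and 1.28 CPM of Irx2 (others 0 to 0.225). Visceral library 2 held 47.9 CPM of H2-Q10 (others 20.8 to 25.3), 163 CPM of Slc2a4 (others 105 to 120), 887 CPM of Retn (others 377 to 432) and 45.5 CPM of Cox8b (others 6.68 to 15.9). Visceral library 2 also held 947 CPM of Agpat2 (others 515 to 633), 28.6 CPM of Plin5 (others 10.8 to 14.4), 336 CPM of Hadh (others 214 to 243) and 152 CPM of Uqcrfs1 (others 96.6 to 101). Visceral library 2 also held 1260 CPM of Atp5b (others 957 to 1020). Visceral library 3 held 206 CPM of Adgre1 (others 45.1 to 73.3), 832 CPM of Gpnmb (others 105 to 296), 204 CPM of Itgax (others 40.8 to 70.3) and 88.7 CPM of Atp6v0d2 (others 18.5 to 35.3). Visceral library 3 also held 490 CPM of Ctss (others 166 to 231). Visceral library 4 held 0.697 CPM of Tbx15 (others 0 to 0.113). Subcutaneous library 2 held 0.771 CPM of Col6a5 (others 0.145 to 0.3), 175 CPM of Uqcrc2 (others 213 to 215) and 1.85 CPM of Igfbp2 (others 0 to 0.434). Subcutaneous library 4 held 6.07 CPM of En1 (others 2.72 to 3.39). Subcutaneous library 5 held 19.9 CPM of Sfrp1 (others 1.88 to 6.9).

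Some genes named in the report had a depot difference that itself differed between groups (edgeR's quasi-likelihood test of the interaction, Benjamini-Hochberg adjustment). Values are log2 differences of the visceral over subcutaneous difference. On Western against control diet the depot difference was higher for Chil3 4.47, Col6a5 4.20, Adgre1 3.43, Socs3 3.29, Lrrn4 2.95 and Ctss 2.84. Further values on that side were Col6a1 2.48, Ccr2 2.38, Casp1 2.32, Mrc1 2.26 and Serping1 1.66. It was lower for Lcn2 -6.81, Hoxa10 -6.70 and Hoxa9 -4.27. On Western diet without against with NaKtide, using all libraries as labelled, it was higher for Msln 8.05, Col6a5 7.33, Slpi 6.51, Alox15 6.44, Gpm6a 6.13 and Itgax 5.16. Further values on that side were Chil3 4.35, Gpnmb 4.16, Trem2 4.15, Otop1 3.43, Col12a1 3.24 and Ctss 3.06. Further values on that side were Casp1 2.94, Socs3 2.85, Adgre1 2.65, Aldh1a3 2.59, Itgam 2.11 and Lep 1.92. Further values on that side were Serping1 1.82, Mrc1 1.63 and Vcam1 1.60. It was lower there for Hoxa10 -5.81, Hoxa9 -3.79, H2-Q10 -2.68, Hoxa7 -1.70 and Retn -1.39. Further values on that side were Uqcrfs1 -1.09, Nrg4 -1.07 and Uqcrc2 -0.93. Without both NaKtide libraries numbered 1, which carry the other depot's markers, all 29 genes listed for the NaKtide contrast kept their direction, 19 were still called and 10 were not. Of those 10, Msln stood at 2.90 (adjusted p = 0.26), Slpi at 1.79 (0.23), Alox15 at 2.15 (0.37) and Col6a5 at 1.06 (0.56). The other 6 were Lep at 1.80, H2-Q10 at -1.85, Retn at -1.43, Uqcrfs1 at -0.98, Nrg4 at -0.87 and Uqcrc2 at -0.70, with adjusted p of 0.061 to 0.099. Muscle and epididymis RNA move with these contrasts, and their part was not tested.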

How the results depend on the processing

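The number of genes called between the depots on Western diet was 2425, and 1598 to 6809 as each library was left out, lowest without visceral library 4 and highest without visceral library 2. It was 7524 with voom quality weights, 370 in the fit of all 40 fat libraries and 6103 without visceral libraries 1 and 2 together. It stayed within 1.5 times with RLE scaling (2414), no filter (1699), DESeq2 (3214), the replicate block (2467) and the length trend (3072). Same-numbered libraries of the 2 depots correlated between -0.055 and 0.33, and 1 of 5 visceral libraries correlated best with its own number. The labels name no pairs. These correlations cannot tell whether equal numbers mean the same mouse, because other differences between libraries, such as that of visceral library 2, enter them. None of the 108 called genes followed here, which leave out Ckb, Gk and Fabp5, changed direction in any alternative. In the fit of all 40 libraries 63 of them were no longer called. With NaKtide the count was 92, and 32 to 316 as each library was left out; it was 50 with no filter, 738 with DESeq2, 39 with the replicate block, 355 with voom, 433 with all 40 libraries and 157 without both libraries numbered 1. The differences between diets numbered 529, and 198 to 1290 with 1 library left out, beyond 1.5 times for 12 of 20 libraries; they were 295 with no filter, 1291 with DESeq2, 244 with the replicate block and 839 with voom. Those with NaKtide numbered 1284, and 682 to 3588 with 1 library left out; they were 611 with no filter, 2410 with DESeq2, 3965 with voom and 519 with all 40 libraries. The cause of these shifts was not tested. At 6745311 to 9784337 counts per library, genes near 1 CPM rest on few reads. Of simulated 2-fold changes 53% were recovered, in counts that held no length trend and no library that stands apart.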
